A study of Mus musculus with 21 samples.

Results

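The LC3 and GABARAP family of the mouse was followed through 21 RNA libraries of sorted hematopoietic stem cells (HSCs), as 5 of the 47729 gene rows of a deposited count table. The rows were chosen by gene symbol: Map1lc3a and Map1lc3b (LC3A and LC3B), Gabarap, Gabarapl1 and Gabarapl2. All 5 were found once each, and all 5 passed the filter on low counts in both experiments of the study. The rule itself reads the symbol alone, but the members were chosen with earlier results of these data known.

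The libraries form 7 groups of 3, all from freshly isolated bone marrow HSCs sorted as CD48-negative, CD150-positive cells of the LSK (lineage-negative, Sca-1-positive, Kit-positive) fraction. In the treatment experiment, mice titled Atg5-/- and described as Mx1-Cre;Atg5fl/fl (their genotype field reads Mx1-Cre; Atgfl/fl) received 10 mg/kg bortezomib, a proteasome inhibitor, or 10% DMSO, and wild-type (WT) mice received the same agents. Injections were retro-orbital and given at 48 h and again at 24 h ahead of the sort. Mx1-Cre is switched on by interferon in many cell types and is not restricted to HSCs, and the labels do not say how it was induced. In the reporter experiment, untreated RFP-EGFP-LC3 mice gave HSCs in 3 classes: RFP single positive, positive for RFP together with GFP (called double positive), and double negative. EGFP is quenched in acidic lysosomes while RFP is not, so such a reporter is read as a measure of how far LC3-bearing membranes have travelled to the lysosome. The labels do not say whether the libraries of a group are separate animals or pools, so p-values measure the spread between these samples. That spread may be partly technical.

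Proteins of this family are small ubiquitin-like modifiers. ATG4 proteases trim the end of the newly made protein to expose a glycine. ATG7 and ATG3 then pass it to the lipid phosphatidylethanolamine on the growing autophagosome, with the ATG12, ATG5 and ATG16L1 complex guiding the last step. On the membrane, family members bind cargo receptors and help the autophagosome to expand, close and fuse. The LC3 branch is tied mainly to membrane expansion and cargo capture, and the GABARAP branch to later steps and to binding of the ULK1 complex. In HSCs, autophagy is known for clearing mitochondria and for sustaining the cells with age.

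A feature these genes share stands at the end of the coding sequence. The last 60 bases before and including the stop codon are shown for each gene (GENCODE M21 transcripts, GRCm38, all on the plus strand), with the codon of the glycine that ATG4 exposes in capitals.
Map1lc3a: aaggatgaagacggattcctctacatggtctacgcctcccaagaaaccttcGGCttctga
Map1lc3b: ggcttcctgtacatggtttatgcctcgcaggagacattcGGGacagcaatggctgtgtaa
Gabarap: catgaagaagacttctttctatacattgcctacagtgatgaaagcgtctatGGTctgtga
Gabarapl1: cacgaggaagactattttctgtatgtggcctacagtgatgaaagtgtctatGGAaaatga
Gabarapl2: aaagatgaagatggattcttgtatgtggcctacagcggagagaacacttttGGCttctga
The glycine is codon 120 in both LC3 genes and codon 116 in the 3 GABARAP genes. In Map1lc3b it is followed by 5 codons, and in each of the other 4 genes by 1. The transcripts share few long stretches: the longest run of identical bases in any pair was 17, between Gabarap and Gabarapl1, and in the least alike pairs it was 10.

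Map1lc3a (ENSMUSG00000027602.9) lies at chr2:155276297-155278073, Map1lc3b (ENSMUSG00000031812.16) at chr8:121590361-121598760, Gabarap (ENSMUSG00000018567.14) at chr11:69991143-69994951, Gabarapl1 (ENSMUSG00000030161.8) at chr6:129533160-129542346 and Gabarapl2 (ENSMUSG00000031950.7) at chr8:111940703-111953612, all on GRCm38. Map1lc3b has processed pseudogenes that resemble it closely. Over 280 to 285 aligned bases, Gm6055, Gm6054, Gm12727, Gm5612 and Gm11949 were 94.0% to 99.6% identical to it, and none held more than 362 counts in a library, against 5416 to 15535 counts for Map1lc3b. Gabarapl2 has similar pseudogenes, of which Gm3724 (99.4% identical) reached 83 counts. Gabarapl1 shares 570 exon bases (28.3% of its exons) with the antisense transcript 1700101I11Rik, which held 0 to 80 counts. Map1lc3b shares 58 exon bases with Zcchc14 on the other strand (0 to 63 counts). Whether counting used the strand is not given in the sources used here, so reads from these stretches cannot be assigned to a strand.

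Library totals ran from 15005500 to 31481691 counts, and 16095 to 18899 genes were detected. The 5 genes together made up 0.0763% to 0.141% of a library. Atg5, the targeted gene, stood at 92.9, 91.6 and 139.3 CPM (counts scaled to library size with TMM, a trimmed-mean normalization) in knockout-labelled bortezomib libraries, 110.8, 111.4 and 104.7 CPM in knockout-labelled DMSO libraries, 97.2, 70.1 and 131.1 CPM in WT bortezomib libraries, and 54.2, 39.0 and 74.2 CPM in WT DMSO libraries. No drop of Atg5 thus accompanied the knockout label. The deleted part cannot be separated from the rest of the gene in such a table, so the value is no check of the label, and the mice are called knockout-labelled throughout. The HSC label was checked against 10 HSC markers, of which all 10 were above 5 CPM in every group. The Xist share is the percentage of Xist, a marker of female cells, in the summed counts of Xist and Ddx3y, a Y chromosome gene. It differed within groups such as knockout-labelled bortezomib (100%, 0% and 3.5%) and WT bortezomib (46%, 32% and 90%). Where shares are opposite, as in the first of these groups, the libraries are not repeats of the same sample. In the treatment experiment the libraries numbered 3 of knockout-labelled bortezomib, WT bortezomib and WT DMSO lay apart from the other 9 along PC3. The double negative libraries 1 and 2 differed most for the family, as described with the reporter results. Values without these libraries are given where they change a result.

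All 5 genes were expressed in every library. Counted by CPM, which is not corrected for length, the medians over 21 libraries were 391.0 for Map1lc3b, 304.2 for Gabarap, 281.0 for Gabarapl1, 67.5 for Gabarapl2 and 37.1 for Map1lc3a. Compared per length (RPKM over the union of annotated exons), Gabarap led with a median of 165.0, followed by Gabarapl1 at 139.6, Map1lc3b at 52.0, Map1lc3a at 31.4 and Gabarapl2 at 29.0. Map1lc3b moves down because its annotated exons add up to 7517 bases, against 1181 to 2325 bases in the other genes. With the length of the longest transcript (4138 bases for Map1lc3b), the medians were 225.2 for Gabarap, 154.4 for Gabarapl1, 94.5 for Map1lc3b, 40.3 for Gabarapl2 and 33.4 for Map1lc3a. The first 3 kept their order, and the last pair changed places.

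**Figure D1:**
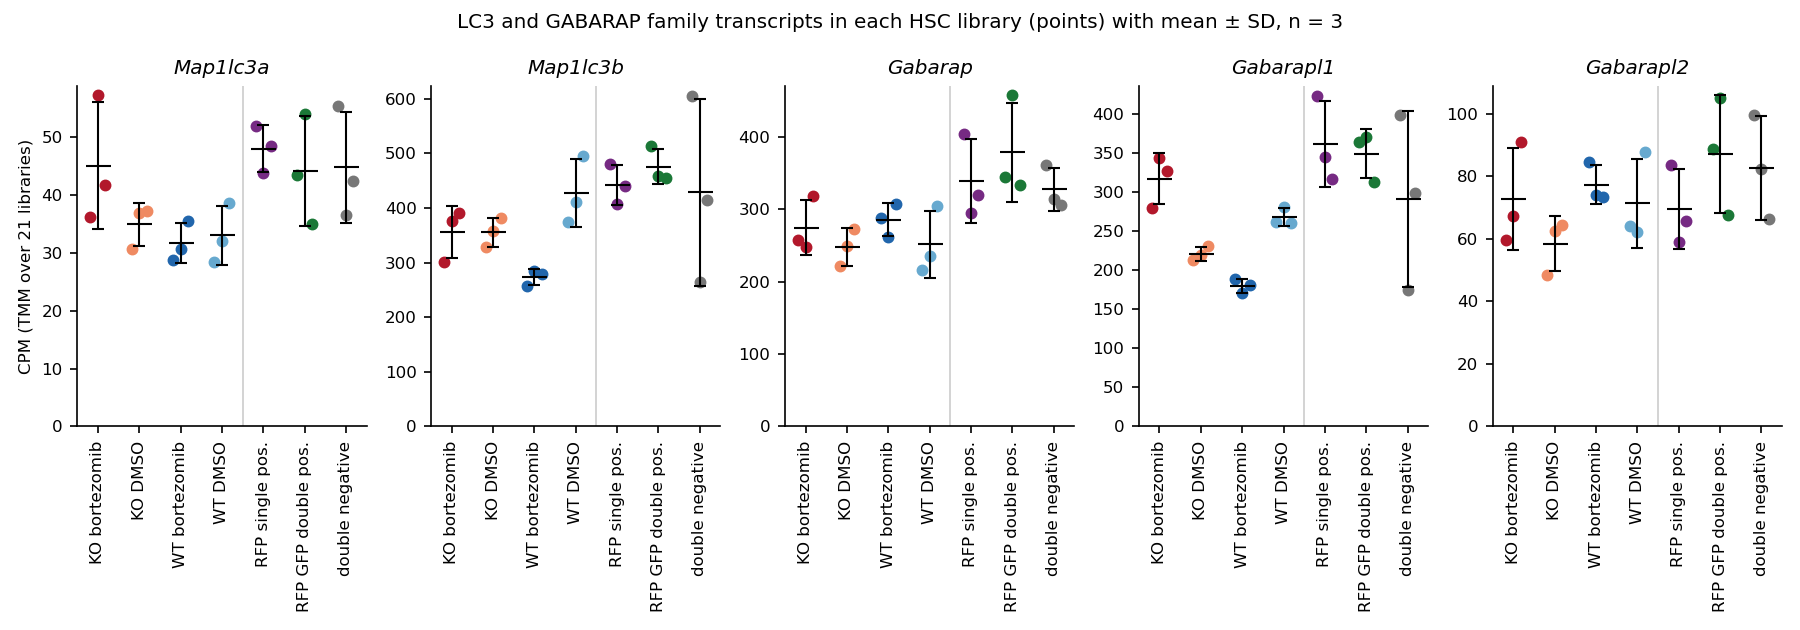
Level of each of the 5 genes in CPM (y axis from 0) in all 21 libraries. Points are libraries, bars are the mean ± SD of 3, and the vertical line divides the treatment experiment (left) from the reporter experiment (right). The 4 lowest Gabarapl1 values belong to the 3 WT bortezomib libraries (171 to 188 CPM) and to double negative 2 (175 CPM).

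Bortezomib was first compared with DMSO in WT HSCs, which asks how the family responds when the proteasome is inhibited. Map1lc3b and Gabarapl1 fell, to 0.653 and 0.683 times their levels in WT DMSO HSCs, and no member rose. Gabarap, Gabarapl2 and Map1lc3a did not pass the test. Of all 16149 genes tested, 15.5% were called in this comparison, 7.97% higher and 7.56% lower, with a call meaning a Benjamini-Hochberg adjusted p under 0.05 in edgeR's quasi-likelihood test over all genes.

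Map1lc3b, the most studied member and the usual marker of autophagosomes, had 258, 284 and 280 CPM in WT bortezomib libraries, against 375, 411 and 496 CPM in WT DMSO libraries. The groups did not overlap, and the spread was wider in DMSO. Its log2 fold change was -0.62 (SE 0.16, adjusted p = 0.0174). The call ended once transcript length and GC were corrected by offsets (log2 fold change -0.40, adjusted p = 0.166), without WT DMSO 2 (adjusted p = 0.0597) and without WT bortezomib 1 (adjusted p = 0.0875). Over all alternatives its adjusted p ranged from 0.000597 to 0.166 and its log2 fold change from -0.71 to -0.40.

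Gabarapl1, known in other cells as a member with strong control at the level of transcription, had 188, 171 and 181 CPM in WT bortezomib libraries, against 262, 281 and 260 CPM in WT DMSO libraries. The 3 libraries of each group lay close together and the groups were well apart. The log2 fold change was -0.55 (SE 0.14, adjusted p = 0.0172). The call ended in 4 of 21 alternatives, without WT bortezomib 1 (adjusted p = 0.0618), without WT bortezomib 2 (0.0726), without WT DMSO 1 (0.0522) and without WT DMSO 2 (0.0824), while the log2 fold change stayed between -0.59 and -0.51 when any library of the experiment was left out.

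The other 3 genes overlapped between the groups. Gabarap, the founding member of its branch, averaged 286 ± 23.4 CPM in WT bortezomib libraries and 252 ± 46.3 CPM in WT DMSO libraries (SD, n = 3 each), with a log2 fold change of 0.21 (95% interval -0.14 to 0.56). Gabarapl2, also known as GATE-16 from its part in Golgi transport, averaged 77.2 ± 6.28 CPM in WT bortezomib libraries and 71.3 ± 14.3 CPM in WT DMSO libraries (log2 fold change 0.14, 95% interval -0.28 to 0.56). Map1lc3a averaged 31.6 ± 3.46 CPM in WT bortezomib libraries and 33.0 ± 5.14 CPM in WT DMSO libraries (log2 fold change -0.04, 95% interval -0.48 to 0.40). These intervals all include 0 and leave room for a change in either direction. The median log2 fold change of the 5 members was -0.04, beside -0.04 over all genes tested.

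Markers of cell identity moved in the same comparison. The summed level of the 10 HSC markers was 1638 to 2023 CPM in WT bortezomib libraries and 2912 to 3181 CPM in WT DMSO libraries. The 10 erythroid markers summed to 163 to 201 CPM in WT bortezomib libraries, with 2 of 10 above 5 CPM and Slc4a1 among those at 0, against 65.4 to 85.8 CPM in WT DMSO libraries, with 2 of 10 above 5 CPM and Ermap at 0. The 10 T and NK cell markers summed to 151 to 215 CPM in WT bortezomib libraries and 89.4 to 91.9 CPM in WT DMSO libraries. In each of these groups 2 of 10 were above 5 CPM and 6 were at 0, with Cd3e, Cd3g, Gzma, Klrd1 and Ncr1 at 0 in both, Cd3d at 0 in WT bortezomib and Trbc2 at 0 in WT DMSO. The 10 monocyte and macrophage markers summed to 136 to 245 CPM in WT bortezomib libraries, with 7 of 10 above 5 CPM and Ly6c2 at 0, and 90.5 to 123 CPM in WT DMSO libraries, with 5 of 10 above 5 CPM and none at 0. The part of these shifts in the family's result was not tested. In bulk RNA, a change in the share of a cell type and a change of RNA per cell cannot be told apart.

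**Figure D2:**
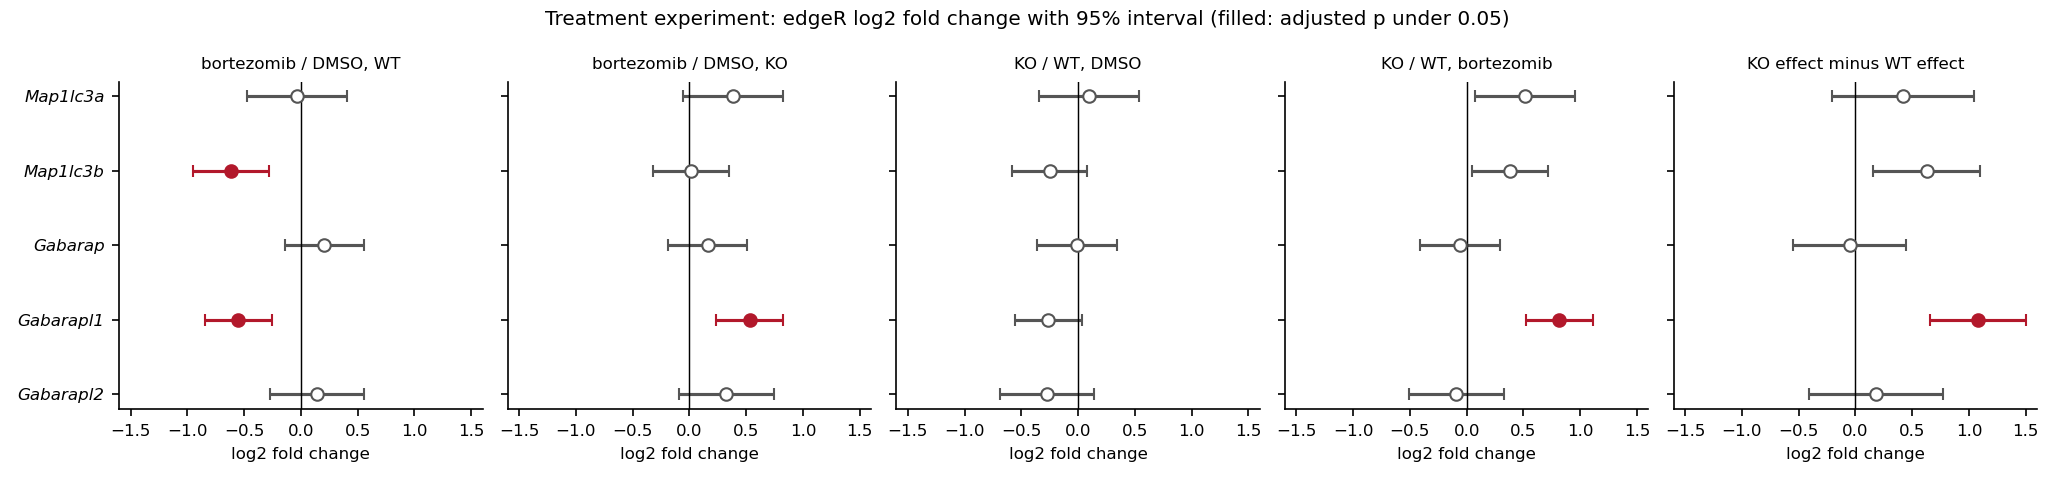
Log2 fold change (x axis) with its 95% interval for each gene in the 5 comparisons of the treatment experiment, from edgeR; KO stands for knockout-labelled, and filled red points have an adjusted p under 0.05. Gabarapl1 lies to the left of 0 for bortezomib in WT (-0.55) and to the right of 0 for bortezomib in knockout-labelled HSCs (0.53).

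In knockout-labelled HSCs, bortezomib was followed by a rise of 1 family member. Gabarapl1 had 280.5, 343 and 328 CPM in knockout-labelled bortezomib libraries, against 214, 219 and 231 CPM in knockout-labelled DMSO libraries. The groups did not overlap. The log2 fold change was 0.53 (SE 0.14, edgeR adjusted p = 0.0463), where 3.63% of all genes were called, 2.02% higher and 1.61% lower. The call was close to the threshold and ended in 11 of 21 alternatives: adjusted p was 0.103 with no filter on low counts, 0.157 with only the groups compared, 0.160, 0.185 and 0.0789 without knockout-labelled DMSO 1, 2 and 3, 0.159 without knockout-labelled bortezomib 2, and 0.0618 to 0.0782 without any single WT bortezomib library or without the first or the second WT DMSO library. Its log2 fold change stayed between 0.46 and 0.61.

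Map1lc3b did not pass the test, with 302, 377 and 391 CPM in knockout-labelled bortezomib libraries, against 328, 357 and 381 CPM in knockout-labelled DMSO libraries. The group means were nearly equal, and the 95% interval of the log2 fold change (0.01) was -0.32 to 0.35. Gabarap had a log2 fold change of 0.16, Gabarapl2 of 0.32 and Map1lc3a of 0.38, with adjusted p of 0.720, 0.451 and 0.387. The median over the 5 members was 0.32, beside 0.00 over all genes tested. Marker sums of other cell types also moved. The 10 endothelial and stromal markers summed to 45.1 to 76.8 CPM in knockout-labelled bortezomib libraries (2 of 10 above 5 CPM, Lepr and Dcn at 0) and 18.4 to 37.2 CPM in knockout-labelled DMSO libraries (1 of 10 above 5 CPM, Cdh5 and Lepr at 0). Erythroid markers summed to 36.0 to 67.2 CPM in knockout-labelled bortezomib and 78.1 to 202 CPM in knockout-labelled DMSO libraries, with 3 of 10 above 5 CPM and none at 0 in either group. Monocyte and macrophage markers summed to 98.2 to 100.7 CPM in knockout-labelled bortezomib and 62.0 to 93.6 CPM in knockout-labelled DMSO libraries, with 5 of 10 above 5 CPM and none at 0 in either group. The part of these shifts in the result was not tested.

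Knockout-labelled and WT HSCs were compared under DMSO to ask whether the family differs before proteasome inhibition. None of the 16149 genes was called by edgeR (0%), with 1454 genes at an unadjusted p under 0.05, 157 called by DESeq2 and 114 by limma voom. Gabarapl1 had 214, 219 and 231 CPM in knockout-labelled DMSO libraries, against 262, 281 and 260 CPM in WT DMSO libraries. The log2 fold change of -0.26 (95% interval -0.56 to 0.03, edgeR adjusted p = 0.595) did not pass. Map1lc3b averaged 356 ± 26.5 CPM in knockout-labelled and 427 ± 62.4 CPM in WT DMSO libraries (log2 fold change -0.25, 95% interval -0.58 to 0.08). The remaining log2 fold changes were 0.09 for Map1lc3a, -0.01 for Gabarap and -0.27 for Gabarapl2. The Xist share also separated these groups. It was 99.2%, 98.6% and 59.98% in WT DMSO libraries 1, 2 and 3. In knockout-labelled DMSO libraries 1, 2 and 3 it was 0.23%, 0.39% and 0.99%. The part of sex, as marked by this share, in these values thus cannot be told apart from genotype.

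Under bortezomib the genotypes differed for Gabarapl1. It had 280.5, 343 and 328 CPM in knockout-labelled libraries, against 188, 171 and 181 CPM in WT libraries. The lowest knockout-labelled library stood well above the highest WT library. The log2 fold change was 0.82 (SE 0.14, adjusted p = 0.000605), and all 21 alternatives kept the call, with log2 fold changes of 0.73 to 0.90 and adjusted p of up to 0.00554. The background was wide here: 32.4% of all genes were called, 17.2% higher and 15.3% lower. Marker sums differed too: HSC markers summed to 2408 to 2755 CPM in knockout-labelled and 1638 to 2023 CPM in WT libraries, erythroid markers to 36.0 to 67.2 CPM in knockout-labelled and 163 to 201 CPM in WT libraries, T and NK cell markers to 52.3 to 117 CPM in knockout-labelled and 151 to 215 CPM in WT libraries, monocyte and macrophage markers to 98.2 to 100.7 CPM in knockout-labelled and 136 to 245 CPM in WT libraries, and endothelial and stromal markers to 45.1 to 76.8 CPM in knockout-labelled and 7.90 to 13.4 CPM in WT libraries. Their part in the result was not tested.

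Map1lc3a and Map1lc3b also had higher means in knockout-labelled than in WT HSCs under bortezomib, but neither passed the test. In this comparison 6797 of 16149 genes had an unadjusted p under 0.05 in edgeR. Map1lc3a had 36.2, 57.3 and 41.6 CPM in knockout-labelled bortezomib libraries, against 28.8, 30.6 and 35.5 CPM in WT bortezomib libraries (log2 fold change 0.51, adjusted p = 0.0717). Map1lc3b had 302, 377 and 391 CPM in knockout-labelled bortezomib libraries, against 258, 284 and 280 CPM in WT bortezomib libraries (log2 fold change 0.38, adjusted p = 0.0759). Their adjusted p ranged from 0.0181 to 0.347 for Map1lc3a and from 0.0401 to 0.800 for Map1lc3b over the alternatives. Gabarap (log2 fold change -0.06) and Gabarapl2 (-0.09) overlapped between the genotypes.

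The difference between the 2 bortezomib responses was tested directly as an interaction, knockout-labelled minus WT. For Gabarapl1 it was 1.08 on the log2 scale (SE 0.20, adjusted p = 0.00819), a call that all 20 alternatives kept (1.01 to 1.17, adjusted p of up to 0.0346). Across all genes 9.05% were called, 4.35% in the positive and 4.71% in the negative direction. With the Xist share as a covariate 276 genes were called, against 1462 without it. Map1lc3b had an interaction of 0.63 (SE 0.22, adjusted p = 0.0849), which did not pass. It passed with DESeq2 (adjusted p = 0.0394), limma voom (0.0453) and the replicate number as a block (0.0451), within a range of 0.0394 to 0.266. The interactions of Map1lc3a (0.42), Gabarapl2 (0.18) and Gabarap (-0.05) did not pass. All of these comparisons share libraries with each other, so they are not independent views of the same gene.

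The make-up of the family's counts within each library is a measure that does not depend on scaling between libraries. In WT bortezomib libraries Gabarap made up 33.7% ± 1.65 of the counts of the 5 genes, and in WT DMSO libraries 23.9% ± 1.54 (SD, n = 3 each). Map1lc3b made up 32.3% ± 2.14 in WT bortezomib and 40.5% ± 1.12 in WT DMSO libraries. There were 0.920 to 1.12 Gabarap counts per Map1lc3b count in WT bortezomib libraries, against 0.574 to 0.613 in WT DMSO libraries, with no overlap. In knockout-labelled HSCs it was Gabarapl1 that took a larger part, 29.8% ± 1.70 under bortezomib and 24.2% ± 1.07 under DMSO. There were 0.838 to 0.930 Gabarapl1 counts per Map1lc3b count in knockout-labelled bortezomib libraries, above the 0.605 to 0.651 in knockout-labelled DMSO, 0.600 to 0.730 in WT bortezomib and 0.525 to 0.70 in WT DMSO libraries. Neither ratio was particular to bortezomib. RFP single positive libraries had 0.720 to 0.880 Gabarapl1 counts per Map1lc3b count, which overlaps the knockout-labelled bortezomib range. Gabarap counts per Map1lc3b count reached 1.19 in double negative 2 and 0.998 in double positive 2. These shares are given as a description, since an exact two-sided permutation test of 3 against 3 libraries cannot give a p below 0.1.

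**Figure D3:**
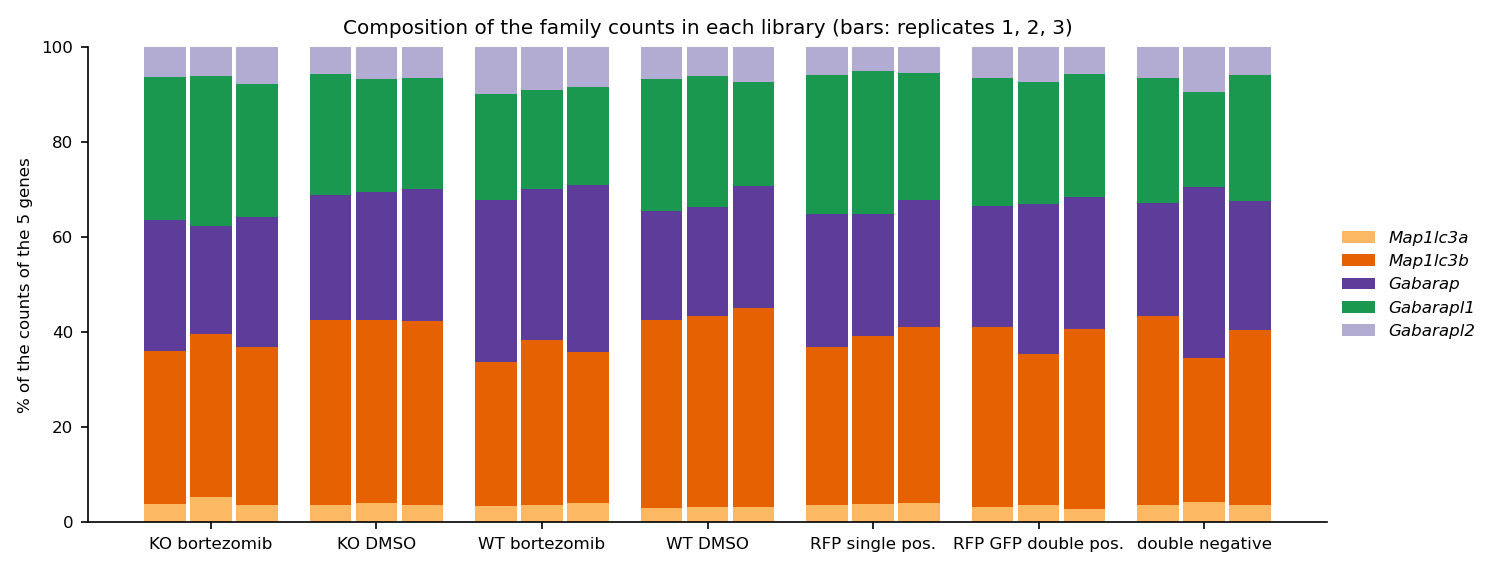
Share of each gene in the summed counts of the 5 genes (y axis, percent) in every library; each group has 3 bars, for replicates 1, 2 and 3. The Gabarap segment is widest in WT bortezomib libraries (33.7% on average) and in double negative 2.

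The RFP-EGFP-LC3 mice carry an LC3 transgene, so the reporter classes were compared to see whether the counts of the endogenous LC3 genes follow the class. No difference passed the test. In RFP single positive against RFP GFP double positive HSCs no member was called and none of 15375 genes was called by edgeR (0%), with 209 genes at an unadjusted p under 0.05, 2 called by DESeq2 and 0 by limma voom. Map1lc3b had 481, 408 and 440 CPM in single positive libraries, against 513, 459 and 456 CPM in double positive libraries, which overlapped. Its log2 fold change was -0.11, with a 95% interval of -0.63 to 0.42. The interval includes 0, so no difference was detectable at this spread.

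The other members gave similar intervals between the reporter-positive classes. Gabarapl1 had 424, 345 and 316 CPM in single positive libraries, against 365, 371 and 313 CPM in double positive libraries (log2 fold change 0.05, 95% interval -0.50 to 0.59). Gabarapl2 averaged 69.4 ± 12.8 CPM in single positive and 87.1 ± 18.8 CPM in double positive libraries (log2 fold change -0.33, 95% interval -0.84 to 0.18). Gabarap and Map1lc3a differed by -0.16 and 0.12 on the log2 scale, with overlapping libraries. Monocyte and macrophage markers summed to 45.2 to 63.3 CPM in single positive and 94.7 to 150.4 CPM in double positive libraries. Of these, 5 of 10 were above 5 CPM in single positive and 8 of 10 in double positive, with Marco at 0 in both. Neutrophil markers summed to 187.6 to 311.4 CPM in single positive and 321.3 to 370.4 CPM in double positive libraries. Only 1 of 10 was above 5 CPM in single positive (Lcn2 and Ctsg at 0) and 3 of 10 in double positive (Ctsg at 0). The other marker sums overlapped between these classes. The part of these shifts in the family's levels was not tested.

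Double negative HSCs, which show neither colour, had the widest spread of all groups for Map1lc3b and Gabarapl1. Map1lc3b had 606, 264 and 415 CPM and Gabarapl1 399, 175 and 299 CPM in double negative libraries 1, 2 and 3. Library 1 was above and library 2 below all 6 reporter-positive libraries for Map1lc3b, and libraries 2 and 3 were below all 6 for Gabarapl1, whose lowest positive library had 313 CPM. Against double negative HSCs no member was called: edgeR called 0% of genes for single positive, 0.0065% (1 gene) for double positive, and 0.0065% for the mean of the 2 positive classes, against double negative each time. DESeq2 called 19, 47 and 114 genes and limma voom 0, 0 and 1 in these 3 comparisons, and 1160, 1315 and 1663 genes had an unadjusted p under 0.05 in edgeR. For the mean of the positive classes against double negative, the log2 fold change of Map1lc3b was 0.12 (95% interval -0.34 to 0.57). It was 0.43 without double negative 1 and -0.14 without double negative 2, so its direction rested on single libraries. Gabarapl1 gave 0.30 (95% interval -0.17 to 0.78), with 0.58 without double negative 1 and 0.04 without double negative 2. Gabarap gave 0.14, Map1lc3a 0.06 and Gabarapl2 -0.07.

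Double negative 1 and 2 also differed in cell markers. HSC markers summed to 2453 to 3378 CPM over the 6 reporter-positive libraries, and to 1905, 1995 and 2933 CPM in double negative 1, 2 and 3, so that double negative 1 and 2 lay below all 6. In double negative 2 the erythroid markers summed to 173 CPM and the monocyte and macrophage markers to 212 CPM, against 67.7 CPM (erythroid) and 87.9 CPM (monocyte and macrophage) in double negative 1 and 49.3 CPM and 53.7 CPM in double negative 3. T and NK cell markers summed to 78.4 to 149 CPM in single positive libraries (2 of 10 above 5 CPM, 6 at 0) and 71.4 to 105 CPM in double positive libraries (2 of 10, 5 at 0), against 149.6 to 208 CPM in double negative libraries (2 of 10, 6 at 0), with Cd3e at 0 in all 3 classes. The part of these values in the family's levels was not tested. The deposited table has 0 rows without a mouse Ensembl identifier, and thus no row for the transgene. The labels do not name the LC3 gene in the transgene, and gene counts cannot show whether its reads were counted in Map1lc3b or Map1lc3a. Map1lc3b was highest of all 21 libraries in double negative 1 (606 CPM) and lowest of the reporter experiment in double negative 2 (264 CPM). Its mean was 429 CPM in double negative, 443 CPM in single positive and 476 CPM in double positive HSCs. Whether transgene reads add to these levels was not tested.

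**Figure D4:**
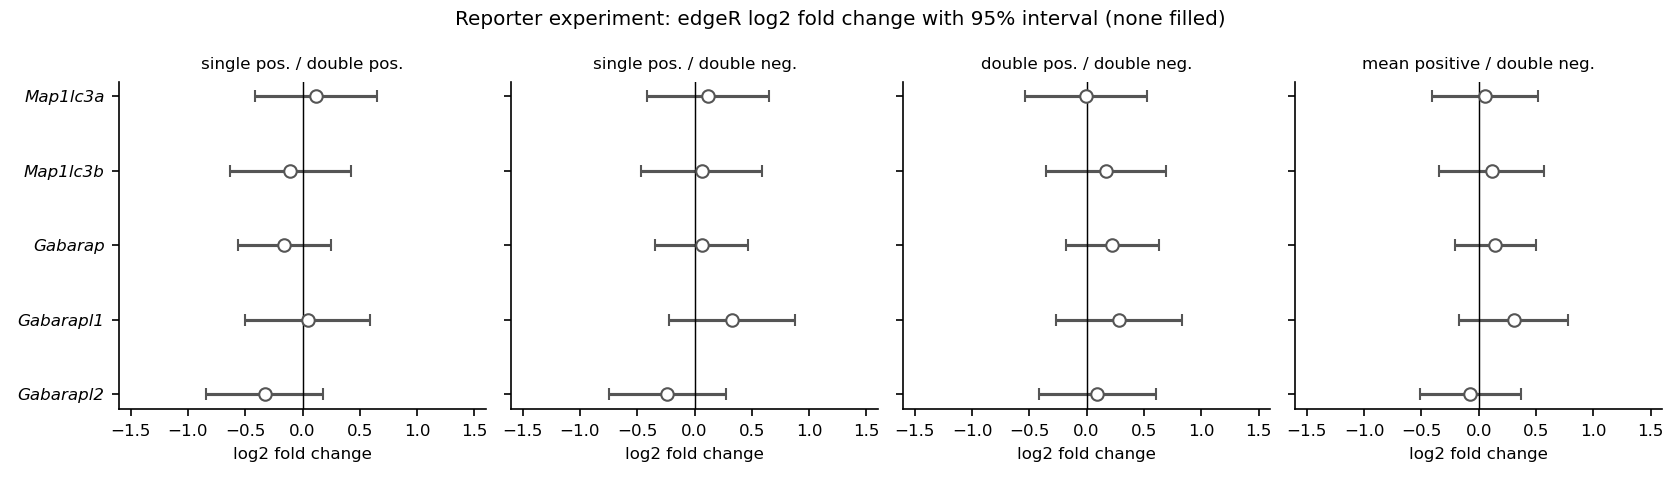
Log2 fold change (x axis) with its 95% interval for each gene in the 4 comparisons of the reporter experiment, from edgeR; no point is filled because none had an adjusted p under 0.05. All 20 intervals include 0.

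Over the 7 groups, Map1lc3b and Gabarapl1 each had their lowest mean in WT bortezomib HSCs (274 and 179.9 CPM). For Map1lc3b the means then ran from knockout-labelled DMSO and knockout-labelled bortezomib (356 CPM each) to WT DMSO (427), double negative (429), single positive (443) and double positive (476). Only the lowest step, from WT bortezomib to knockout-labelled DMSO, separated neighbours without overlap. For Gabarapl1 the order from WT bortezomib was knockout-labelled DMSO (221), WT DMSO (268), double negative (291), knockout-labelled bortezomib (317), double positive (349.7) and single positive (362). Its first 2 steps separated neighbours, and the later ones did not. For Gabarap (248 to 379 CPM), Gabarapl2 (58.4 to 87.1 CPM) and Map1lc3a (31.6 to 48.0 CPM) every pair of neighbouring groups overlapped. Groups were ordered by these same means, and the share of all genes with such separated steps was not determined. The steps are therefore a description only. The treatment and reporter experiments differ in mouse line and injection at once, so levels across them were set side by side with no test.

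Across libraries the family held pairs that varied together. After the mean of each experiment was subtracted, log2 CPM of Map1lc3b and Gabarapl1 had a Pearson r of 0.78 (Spearman rho 0.72) over 21 libraries, and Gabarap and Gabarapl2 an r of 0.81 (rho 0.82). Between the pairs r was 0.13 to 0.21. Map1lc3a was closest to Gabarapl1 (r 0.66, rho 0.63). Values of 1 library share its depth and its cells, and libraries of a group are not independent points, so these values describe the 21 libraries.

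**Figure D5:**
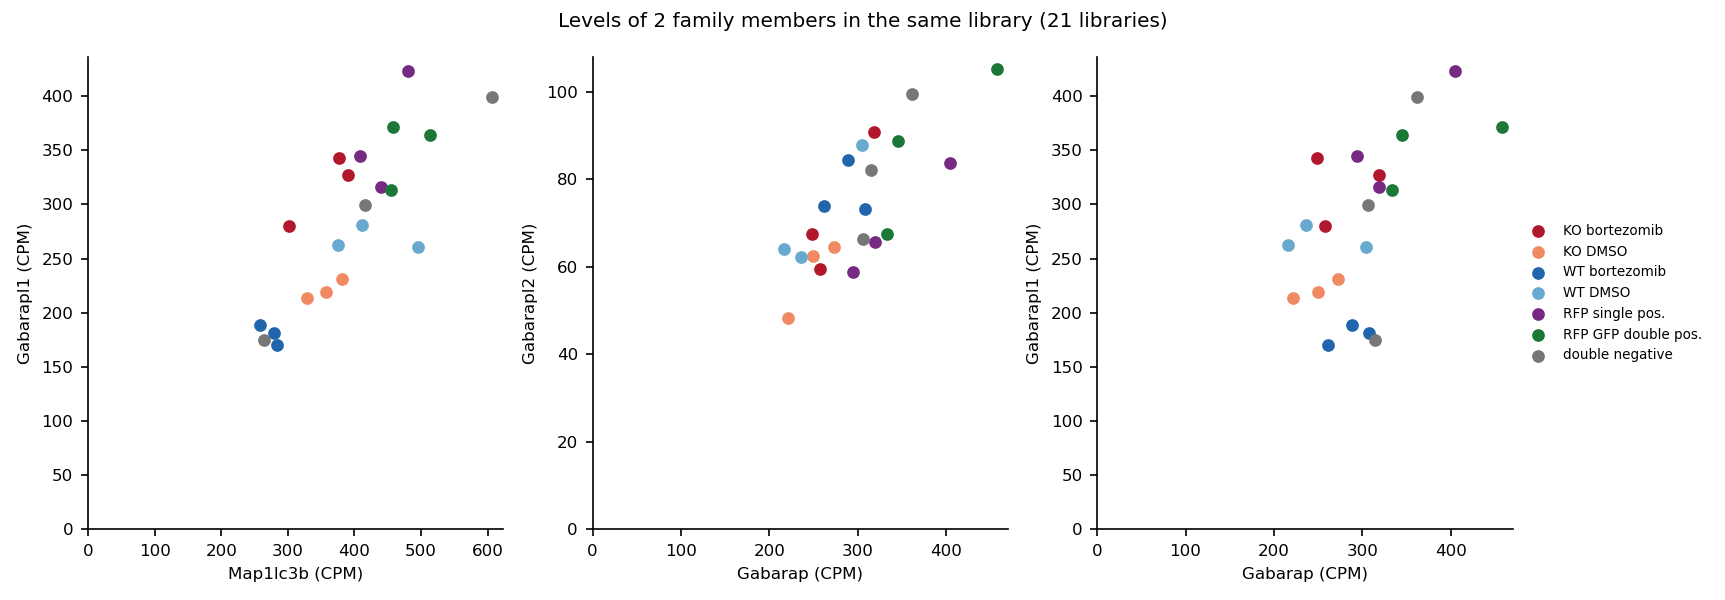
Levels in CPM (both axes from 0) of 2 genes in the same library, for 21 libraries coloured by group. Gabarapl1 follows Map1lc3b (left) and Gabarapl2 follows Gabarap (centre), while Gabarapl1 and Gabarap (right; r 0.20) spread widely, with WT bortezomib libraries low in Gabarapl1 only.

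Among 9937 protein-coding genes with a mean of at least 5 CPM, the genes most like each member were taken by the same r. For Gabarapl1 they were Klf6 (r 0.94, rho 0.92), an early-response transcription factor, Plpp7 (r 0.89, rho 0.85) and Tnfrsf1a (r 0.89, rho 0.73), a receptor for tumour necrosis factor. For Map1lc3b they were Myct1 (r 0.90, rho 0.89), Hbp1 (r 0.90, rho 0.89), a repressor of cell cycle genes, and Cyp2j9 (r 0.88, rho 0.93). Gabarapl2 was most like Hscb (r 0.91, rho 0.87), a co-chaperone of iron-sulphur cluster assembly, Tmem60 (r 0.91, rho 0.92) and Cript (r 0.90, rho 0.90). Gabarap was most like Rps27rt (r 0.84, rho 0.82), Rpl10-ps3 (r 0.83, rho 0.85) and Gabarapl2 (r 0.81, rho 0.82). The first pair are copies of ribosomal protein genes whose reads could be split with near-identical genes. Map1lc3a was most like Mad2l1bp (r 0.77, rho 0.74), Zmym5 (r 0.75, rho 0.64) and Zfos1 (r 0.74, rho 0.73).

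Map1lc3b and Gabarapl1 varied together across libraries (r 0.78), but parted under bortezomib in knockout-labelled HSCs (log2 fold changes 0.01 and 0.53). The stretch upstream of each is shown, from 250 bases before the RefSeq start (GRCm38.p6) to the last base before the annotated gene. It is chr8:121590188-121590360 for Map1lc3b and chr6:129532942-129533159 for Gabarapl1, plus strand, with any motif match in capitals.
Map1lc3b: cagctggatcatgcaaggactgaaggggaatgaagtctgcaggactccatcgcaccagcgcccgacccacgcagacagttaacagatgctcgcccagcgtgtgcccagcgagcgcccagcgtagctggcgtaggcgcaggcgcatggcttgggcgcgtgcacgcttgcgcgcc
Gabarapl1: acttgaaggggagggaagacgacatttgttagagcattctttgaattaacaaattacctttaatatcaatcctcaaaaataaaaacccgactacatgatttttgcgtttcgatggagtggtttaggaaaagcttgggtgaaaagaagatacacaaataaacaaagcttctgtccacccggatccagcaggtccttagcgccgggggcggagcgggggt
Neither stretch holds capitals. The search covered both strands of the 250 bases upstream of the RefSeq start for 4 motifs: CACGTG (E-box, bound by TFEB and its relatives), GTAAACA (core bound by FOXO factors), TGATGNAA (bound by ATF4 with a partner) and TGACNNNGC (antioxidant response element, bound by NRF2). None occurred in the windows of Map1lc3b, Gabarap, Gabarapl1 or Gabarapl2, and Map1lc3a had no entry. Of the 250 bases, 173 lay before the annotated gene for Map1lc3b, 23 for Gabarap, 218 for Gabarapl1 and 250 for Gabarapl2. The Gabarap window thus lay mostly inside the annotated gene. Over all 32851 promoters of that length the motifs were present in 6.02%, 3.17%, 3.45% and 10.2%. The windows differed in base composition, with 69.6% GC and 30 CpG dinucleotides for Map1lc3b and 46.8% GC and 12 CpG dinucleotides for Gabarapl1.

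The machinery around the family was then described by lists of genes, which were also chosen with earlier results of these data known. In WT HSCs, bortezomib was followed by lower levels of some genes that start autophagosomes: of 21 initiation and phagophore genes 7 fell and 1 rose (median log2 fold change -0.47, beside -0.04 over all genes). Over all genes tested, 7.56% were called lower and 7.97% higher in this comparison, the shares against which this and the other list counts of the comparison stand. Rb1cc1, the FIP200 scaffold of the ULK1 complex, fell to 30.8 ± 4.25 CPM in WT bortezomib HSCs, against 74.2 ± 20.5 CPM in WT DMSO HSCs (adjusted p = 0.00667). Atg14, which directs the lipid kinase complex to the site of assembly, fell by 1.00 on the log2 scale (adjusted p = 0.00785), while Vmp1, a membrane protein of the endoplasmic reticulum, rose by 0.89 (adjusted p = 0.00679). Without WT DMSO 2 the number of genes of this list that fell was 2, and over the other left-out libraries it reached 8.

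Receptors that bind the family moved both ways in WT HSCs under bortezomib, 3 of 17 lower and 1 higher, beside 15.5% of all genes called in either direction. Calcoco1 fell to 14.3 ± 3.13 CPM in WT bortezomib HSCs, against 46.0 ± 16.4 CPM in WT DMSO HSCs (adjusted p = 0.00421), and Nbr1 and Tax1bp1 fell by 1.19 and 0.65. Phb2, a mitochondrial inner membrane protein that binds LC3, rose by 0.96 (adjusted p = 0.00412). Of 7 transcription factors of autophagy genes, Foxo1, Foxo3 and Zkscan3 fell (-0.96, -1.08 and -0.63), of which the first 2 are known as activators and the last as a repressor. None of these 3 calls held without WT bortezomib 1, and 1 receptor gene was called lower without that library, WT DMSO 1 or WT DMSO 2. Of 16 fusion genes 4 fell and 1 rose, among them Vps41, Vps39 and Vps11 of the HOPS tethering complex (log2 fold changes -0.89, -1.13 and -0.95) and Tecpr1 (-1.61). Of 11 genes that process and conjugate the family, Atg5 alone was called and rose (0.86, adjusted p = 0.0302), a call that 5 of 21 alternatives ended.

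In knockout-labelled HSCs under bortezomib, 2 of 11 conjugation genes, 1 of 17 receptors, 1 of 21 initiation genes and 1 of 16 fusion genes rose, where 2.02% of all genes were called higher and 3.63% in either direction. Sqstm1, the p62 receptor that carries ubiquitinated cargo to LC3, rose to 1144 ± 399 CPM in knockout-labelled bortezomib HSCs, against 323 ± 53.0 CPM in knockout-labelled DMSO HSCs (log2 fold change 1.84, adjusted p = 0.000861), and all 21 alternatives kept that call. Atg4a, one of the ATG4 proteases, rose by 0.94 (adjusted p = 0.0161) and Atg7, the activating enzyme, by 0.66 (adjusted p = 0.0469). Neither call held without any one knockout-labelled DMSO library. Vmp1 rose by 0.85 and Lamp2, a lysosomal membrane protein, by 0.81. No gene of these lists fell.

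Under bortezomib, knockout-labelled HSCs had higher levels than WT of 13 of 21 initiation genes (0 lower), 6 of 17 receptors (2 lower), 8 of 16 fusion genes (1 lower), 4 of 7 transcription factors (0 lower) and 3 of 11 conjugation genes (1 lower). The medians were 0.89, 0.36, 0.56, 0.85 and 0.12, beside 0.08 over all genes, of which 17.2% were called higher and 15.3% lower. Sqstm1 stood at 1144 ± 399 CPM in knockout-labelled and 221 ± 47.8 CPM in WT HSCs (log2 fold change 2.37, adjusted p = 7.94e-05). Ulk1, the initiating kinase, was higher by 1.89, Calcoco1 by 2.34, Tecpr1 by 2.63 and Tfe3, a relative of TFEB, by 1.10. Phb2 (log2 fold change -1.39) and Atg3, the enzyme that transfers LC3 to lipid (-0.62), were lower in knockout-labelled HSCs. The initiation count was 10 without knockout-labelled bortezomib 2, and the fusion count 5.

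The interaction was called for 5 of 21 initiation genes, 3 of 17 receptors, 3 of 16 fusion genes, 1 of 7 transcription factors and 1 of 11 conjugation genes in the positive direction, and for Phb2 in the negative direction, where 4.35% of all genes were called positive and 4.71% negative. Sqstm1 (2.34), Tecpr1 (2.61) and Phb2 (-1.32) kept their calls in all 20 alternatives, as Gabarapl1 did. The initiation count was 1 without any single one of 6 libraries (knockout-labelled bortezomib 2, the first or the second knockout-labelled DMSO library, the first or the second WT bortezomib library, and WT DMSO 2), and 0 with the Xist share as a covariate. Between genotypes under DMSO, and between the reporter classes, no gene of the 5 lists was called by edgeR.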

How the data were processed

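RNA of sorted HSCs was extracted with the RNeasy Plus Micro kit and made into libraries with SMARTseq2, per the labels' protocols. The authors deposited raw read counts per gene for 21 libraries. The submitters' processing notes name Bowtie 1.0.0, STAR 2.6.1 and HTSeq 0.7.1, and the builds GRCm38.p4 and GRCh38. The annotation release is not stated in the labels or the file header. Reads carry no molecular identifiers, so amplified copies are counted.

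Grouping followed the sample titles. edgeR 4.0.16 in R 4.3.3 kept 16149 genes (treatment) and 15375 genes (reporter) by filterByExpr. Each experiment had 1 quasi-likelihood fit with TMM factors and a mean per group, and Benjamini-Hochberg adjustment covered all genes of a comparison, called under 0.05. Printed CPM use TMM over all libraries (17152 genes), and intervals are 95%. Of the table's identifiers, 47224 matched GENCODE M21. Likeness used log2 CPM with a prior count of 2. Chi-square tests of the counts between libraries of the same group found no duplicates, and pairs across groups were not compared.

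All members were described in each comparison. Of each pathway list, the called genes with the smallest p were eligible to be named, at most 4 per comparison. Members and lists were chosen with earlier results of these data known. Alternatives were RLE factors, DESeq2 1.42.0, limma 3.58.1 voom with quality weights, no filter, only the groups compared, a replicate block, spline offsets for length and GC (4 degrees of freedom), the Xist share as covariate, each library left out, the 3 libraries apart left out, and, for levels, library totals. The fits were tested on simulated data. Python 3.11 and matplotlib 3.10.9 drew the figures.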

Additional observations from a re-analysis of the deposited data

Results flagged for a closer look

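The bortezomib response differed between knockout-labelled and WT HSCs, by the interaction test, for 1 family member and 13 named genes of the surrounding pathway lists. All differences are knockout-labelled minus WT on the log2 scale, from edgeR's quasi-likelihood test with Benjamini-Hochberg adjustment over all genes. For Gabarapl1 the difference was 1.08 (adjusted p = 0.00819). At most 4 genes per list were named, so Ulk1 of the initiation list (1.39, adjusted p = 0.0359) is not among the 13. Over all genes tested, 4.35% were called in the positive and 4.71% in the negative direction.

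Of the receptors, Sqstm1 differed by 2.34 (adjusted p = 0.00384), Optn by 2.33 (0.0219), Calcoco1 by 1.96 (0.0136) and Phb2 by -1.32 (0.00819). Of the initiation genes, Wipi1 differed by 1.78 (adjusted p = 0.0279), Rb1cc1 by 1.64 (0.0143), Atg14 by 1.17 (0.0255) and Atg13 by 0.88 (0.0307). Of the fusion genes, Tecpr1 differed by 2.61 (adjusted p = 0.00882), Vps11 by 1.38 (0.0101) and Vps41 by 0.94 (0.0208). Atg7, the activating enzyme of the family, differed by 0.86 (adjusted p = 0.0417) and Zkscan3 by 0.86 (0.0409). Of these calls, Gabarapl1, Sqstm1, Phb2 and Tecpr1 held in all 20 alternatives. Calcoco1, Rb1cc1 and Vps11 lost theirs in 1 alternative each, Optn in 6, Atg14, Wipi1 and Vps41 in 8 each, Atg13 in 10, Atg7 in 11 and Zkscan3 in 12.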

How the results depend on the processing

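Gabarapl1 kept its calls between genotypes under bortezomib and in the interaction in every alternative run, and no member was called in the reporter experiment or between genotypes under DMSO in any. The fold changes below are log2 values. With DESeq2 the interaction of Map1lc3b was 0.62 and passed, and it passed with limma voom (0.47) and the replicate block (0.62). With voom, Map1lc3a between genotypes under bortezomib (0.45) passed, and values near 0 changed sign: Map1lc3b under bortezomib in knockout-labelled HSCs (-0.089), Gabarap between genotypes under DMSO (0.063), the Gabarapl2 interaction (-0.13), Gabarapl1 in single against double positive (-0.0085) and Map1lc3a in double positive against double negative (0.028). That last value was also positive with no filter (0.0036) and with the block (0.0040). Gabarapl1 under bortezomib in knockout-labelled HSCs lost its call with no filter (0.53) and with only the groups compared (0.53). With the block, Map1lc3b between genotypes under bortezomib (0.37) passed. Correlations of deviations between samples of the same number ran from -0.0282 to 0.165. In the reporter experiment the Xist share followed the number. It was 99.9% in single positive, 97.4% in double positive and 88.1% in double negative library 2. In the libraries numbered 1 and 3 it was 0 to 10.2%. Whether the classes share animals or pools is not given, and the main tests leave any such pairing out. The replicate block gave 3039 called genes for bortezomib in WT and 780 for bortezomib in knockout-labelled HSCs. It gave 23 for genotype under DMSO, 5657 for genotype under bortezomib and 1889 for the interaction.

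With length and GC offsets, Map1lc3b under bortezomib in WT (-0.40) lost its call and Map1lc3a between genotypes under bortezomib (0.67) gained one. Sign changes were seen for Gabarap (0.12 between genotypes under DMSO, 0.11 under bortezomib), Gabarapl2 (0.073 between genotypes under bortezomib, 0.084 for reporter-positive against double negative), Map1lc3b (-0.37, -0.15 and -0.26 for single positive, double positive and both against double negative) and Map1lc3a (-0.032 for both against double negative). With the Xist covariate, Map1lc3a between genotypes under DMSO (-0.19) and the Gabarap interaction (0.033) changed sign. Without the 3 libraries apart, Map1lc3a between genotypes under bortezomib (0.63) passed, and Map1lc3a under bortezomib in WT (0.048), Map1lc3b under bortezomib in knockout-labelled HSCs (-0.042), Gabarap between genotypes under DMSO (0.15) and the Gabarapl2 interaction (-0.26) changed sign. Scaled by library totals, Map1lc3b averaged 252 CPM in WT bortezomib libraries, and Gabarapl1 234.9, 165 and 279.6 CPM in knockout-labelled DMSO, WT bortezomib and WT DMSO libraries. The causes were not tested.

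Leaving out 1 library gave these ranges. For bortezomib in WT, Map1lc3a lay between -0.14 and 0.079, Map1lc3b between -0.70 and -0.51 and Gabarapl1 between -0.59 and -0.51. For bortezomib in knockout-labelled HSCs, Map1lc3b lay between -0.043 and 0.12 and Gabarapl1 between 0.46 and 0.61. Between genotypes under DMSO, Map1lc3a lay between -0.0045 and 0.21 and Gabarap between -0.11 and 0.14. Between genotypes under bortezomib, Map1lc3a lay between 0.29 and 0.65, Map1lc3b between 0.29 and 0.49, Gabarap between -0.20 and 0.0036 and Gabarapl2 between -0.31 and 0.037. In the interaction, Gabarap lay between -0.20 and 0.053 and Gabarapl2 between -0.030 and 0.31. For single against double positive, Map1lc3a lay between -0.023 and 0.29 and Gabarapl1 between -0.087 and 0.14. For single positive against double negative, Map1lc3a lay between -0.0085 and 0.28, Map1lc3b between -0.19 and 0.38 and Gabarap between -0.083 and 0.16. For double positive against double negative, Map1lc3a lay between -0.17 and 0.16, Map1lc3b between -0.083 and 0.48 and Gabarapl2 between -0.065 and 0.24. For both positive classes against double negative, Map1lc3a lay between -0.068 and 0.22, Map1lc3b between -0.14 and 0.43 and Gabarapl2 between -0.20 and 0.063.

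Counts of called genes varied more than the members' values: 588 (without WT bortezomib 1) to 6234 (voom) for bortezomib in WT, 182 (without knockout-labelled DMSO 2) to 1902 (without the 3 libraries apart) for bortezomib in knockout-labelled HSCs, 0 to 189 for genotype under DMSO, 3582 to 7428 for genotype under bortezomib and 276 to 4862 for the interaction. Of 54 named pathway results, 29 kept their call in every alternative and none reversed. Of 90 list counts, 63 stayed within 1.5 times. The 90 include genotype under DMSO and the reporter comparisons, where every main count was 0. The 7 initiation genes lower for bortezomib in WT ranged from 2 (without WT DMSO 2) to 11 (voom). The 5 positive initiation genes of the interaction ranged from 0 (Xist covariate) to 9 (voom). The 4 transcription factors higher between genotypes under bortezomib ranged from 3 to 5. Every member had at least 566 counts in every library.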
